A study of Mus musculus with 8 samples.

Results

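DNA methylation enzymes and readers are 9 genes whose transcripts were followed in embryonic mouse hippocampus: the DNA methyltransferases Dnmt1, Dnmt3a and Dnmt3b, the maintenance cofactor Uhrf1, the dioxygenases Tet1, Tet2 and Tet3, and the methyl-CpG binding domain genes Mbd1 and Mbd3. They were chosen by name from the 16397 genes of the count table, and all 9 were found and tested among 13707 protein-coding genes. RNA was sequenced from hippocampi dissected at E15.5 from C57Bl/6J mice, with 1 library per sample. In the IUGR group (intrauterine growth restriction; 4 samples, T1-5, T1-3, T1-1 and T1-4), the dam carried from E12.5 a micro-osmotic pump that released U-46619, a thromboxane A2 analog that raises maternal blood pressure. In the sham group (4 samples, S1-6, S3-4, S1-4 and S3-1), the dam had the same operation at the same stage with a pump holding vehicle, so all 8 samples shared surgery and pump. Every IUGR name began with T1 and sham names with S1 or S3, so whatever T stands for cannot be told apart from treatment. The labels do not give sex or litter, and nothing in them says that samples came from separate litters, so p values measure the spread between these samples.

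Cytosine methylation in mammals is laid down mostly at CG dinucleotides. Dnmt3a and Dnmt3b place it on unmethylated DNA, whereas Dnmt1, brought to newly replicated DNA by Uhrf1, copies it from the old strand to the new one, so that neural progenitors keep their pattern as they divide. Tet enzymes oxidize methylcytosine on the way to its removal, and proteins with a methyl-CpG binding domain are part of how the mark is read by repressive complexes; in the developing brain the balance between these activities accompanies the passage from progenitor to neuron. RNA levels of these genes, and not methylation itself, were measured here.

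Total counts on genes were between 11212632 and 16672463 per sample. Of the genes tested, 200 were called by edgeR's quasi-likelihood test where a call needed a Benjamini-Hochberg adjusted p no higher than 0.05 together with a 2-fold difference (1 on the log2 scale), 186 lower and 14 higher in IUGR. The 11 markers of the hippocampal primordium were all detected and tested, and none was called, but 10 of the 11 had fitted log2 values below 0, 3 had an unadjusted p under 0.05, and the median was -0.40. They ran from -1.20 for Nr2f1 to 0.61 for Tbr1 on the log2 scale. CPM are counts per 1000000 counts on the tested genes, scaled by TMM. Nr2f1 lay between 32.9 and 72.5 CPM in IUGR and between 74.5 and 148 CPM in sham with no overlap (adjusted p = 0.0584 in edgeR). The 14 neuron markers all had fitted log2 values above 0, from 0.17 for Rbfox3 to 1.24 for Nefl with a median of 0.62, and 9 had an unadjusted p under 0.05, although none was called. Their mean log2 CPM did not overlap between the groups, with 7.05 to 7.58 in IUGR and 6.55 to 7.04 in sham. The 12 radial glia and stem cell markers had a median of -0.16, from -0.28 for Sox9 to 0.18 for Hes5. Choroid plexus markers, from the tissue that lies against the hippocampal primordium, also separated the groups. Of the 15 that were tested, 4 were called lower (Folr1, Otx2, Cldn2 and Car12) and none higher, and the list averaged, on the scale of log2 CPM, from -0.26 to 3.52 in IUGR and from 5.20 to 5.73 in sham. Markers of meninges varied most within the IUGR group, with a mean log2 CPM from 1.87 in T1-4 to 7.06 in T1-3, and all 10 had fitted log2 values above 0 (median 1.27) with none called and none at an unadjusted p under 0.05. Endothelial markers had a median of 0.54 with 6 of 8 above 0 and 2 at an unadjusted p under 0.05, and the 8 erythroid and 9 microglia markers were all above 0, with medians of 0.43 and 0.30, none of them called. The part of these other cell types in the values of the members was not tested.

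The first question was whether any of these 9 genes differed between IUGR and sham hippocampi. None did beyond the spread between samples. edgeR's quasi-likelihood test called 0 of 9, against 1.46% of all tested genes called in either direction, 1.36% called lower and 0.102% called higher. At an unadjusted p under 0.05 the count was again 0 of 9, against 11.1% of all tested genes, and for no member were the 4 IUGR values all above or all below the 4 sham values, which held for 7.14% of tested genes. These background shares are small enough that 9 genes could hold none of them, so the counts alone say little about the members; the intervals below say more. DESeq2's Wald test and limma-voom also called 0 of the 9. The fitted change was above 0 in 5 members and below 0 in 4, with a median log2 fold change of 0.0046 against -0.023 over all tested genes; the split was 0 above and 9 below without S3-1, 1 and 8 with the S1 sham samples alone, and 9 and 0 with the S3 sham samples alone. A sham sample stood apart from the rest: S3-1 was the lowest of the 8 samples in 8 of the 9 genes, and its mean log2 CPM over the 9 was 6.23, against 6.65 to 6.88 in the other sham samples and 6.41 to 6.81 in IUGR. Its total count, 13631166, was inside the range of the others. In bulk tissue, fewer cells of a type and less RNA per cell cannot be told apart.

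What the data bound is the size of a change. All 9 95% intervals lay inside a 2-fold difference in either direction, the fold criterion for a call. This held in each edgeR alternative run except that without T1-1 and T1-4, where the interval of Tet3 ran from -1.14 to 0.57 on the log2 scale. The interval of Uhrf1 in that run, from -0.99 to 0.0084, was still just inside. The narrowest interval, for Dnmt3a, ran from 0.835-fold to 1.28-fold, and the widest, for Tet3, ran from 0.592-fold to 1.42-fold. Tet3 had the largest fitted change of the 9, with a log2 fold change of -0.13, and 49.2% of tested genes had one of that size or smaller. The smallest p of the 9 was 0.638, for Dnmt3b (edgeR's quasi-likelihood test), and 38.4% of tested genes had a p at or above it. Adjusted p by the Benjamini-Hochberg method in edgeR was 0.9995 for each of the 9 genes.

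**Figure D1:**
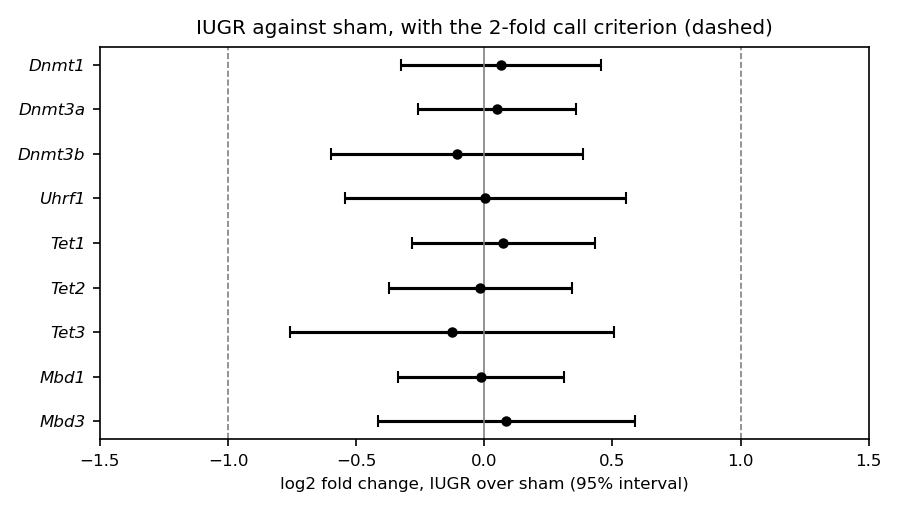
The horizontal axis is the log2 fold change of IUGR over sham from edgeR for each of the 9 genes (n = 4 samples per group), with points for the fitted value and bars for its 95% interval, and dashed lines mark the 2-fold criterion. Every bar crosses 0 and ends inside the dashed lines, and the bar of Tet3 is the widest, from -0.76 to 0.51.

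Maintenance of methylation depends on Dnmt1, the methyltransferase that restores methylation of the new strand after replication, and on Uhrf1, the protein that recognizes hemimethylated CG sites and brings Dnmt1 to them. Dnmt1 (ENSMUSG00000004099, GRCm38 chr9:20907209-20959888, minus strand) was measured at 316.5, 336.5, 490.8 and 458.1 CPM in IUGR samples T1-5, T1-3, T1-1 and T1-4, and at 426.5, 382.3, 419.7 and 302.9 CPM in sham samples S1-6, S3-4, S1-4 and S3-1; the same sample order is kept for every gene below. The IUGR samples formed a low pair, T1-5 and T1-3, and a high pair, T1-1 and T1-4, with 3 of the 4 sham samples between the pairs and S3-1 below both. The means were 400.5 ± 86.9 CPM in IUGR and 383 ± 56.8 CPM in sham (SD, n = 4 each). The log2 fold change was 0.065 (SE 0.18, interval from -0.33 to 0.46), and an exact two-sided permutation test of log2 CPM gave p = 0.80, where the smallest p that 4 against 4 samples allow is 0.0286.

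Uhrf1 (ENSMUSG00000001228, GRCm38 chr17:56303321-56323486, plus strand) showed the same arrangement more widely spread. It stood at 130.9, 126.4, 219.3 and 248.9 CPM in IUGR and at 214.2, 190.6, 193.1 and 125.3 CPM in sham. T1-5, T1-3 and S3-1 were low and close together, the remaining sham samples lay between 190.6 and 214.2 CPM, and T1-1 and T1-4 were above every sham sample. Group means were nearly equal, 181 ± 62.1 CPM for the IUGR group and 181 ± 38.5 CPM for the sham group (SD, n = 4 each), although the highest sample held 1.99 times the level of the lowest. The log2 fold change was 0.0046 (SE 0.25, interval from -0.54 to 0.55; exact permutation p = 1.0). Without T1-1 and T1-4, the IUGR samples with the fewest choroid plexus transcripts, the log2 fold changes were -0.49 for Uhrf1 (adjusted p = 0.366) and -0.23 for Dnmt1 (adjusted p = 0.714) in edgeR's quasi-likelihood test, so neither passed.

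**Figure D2:**
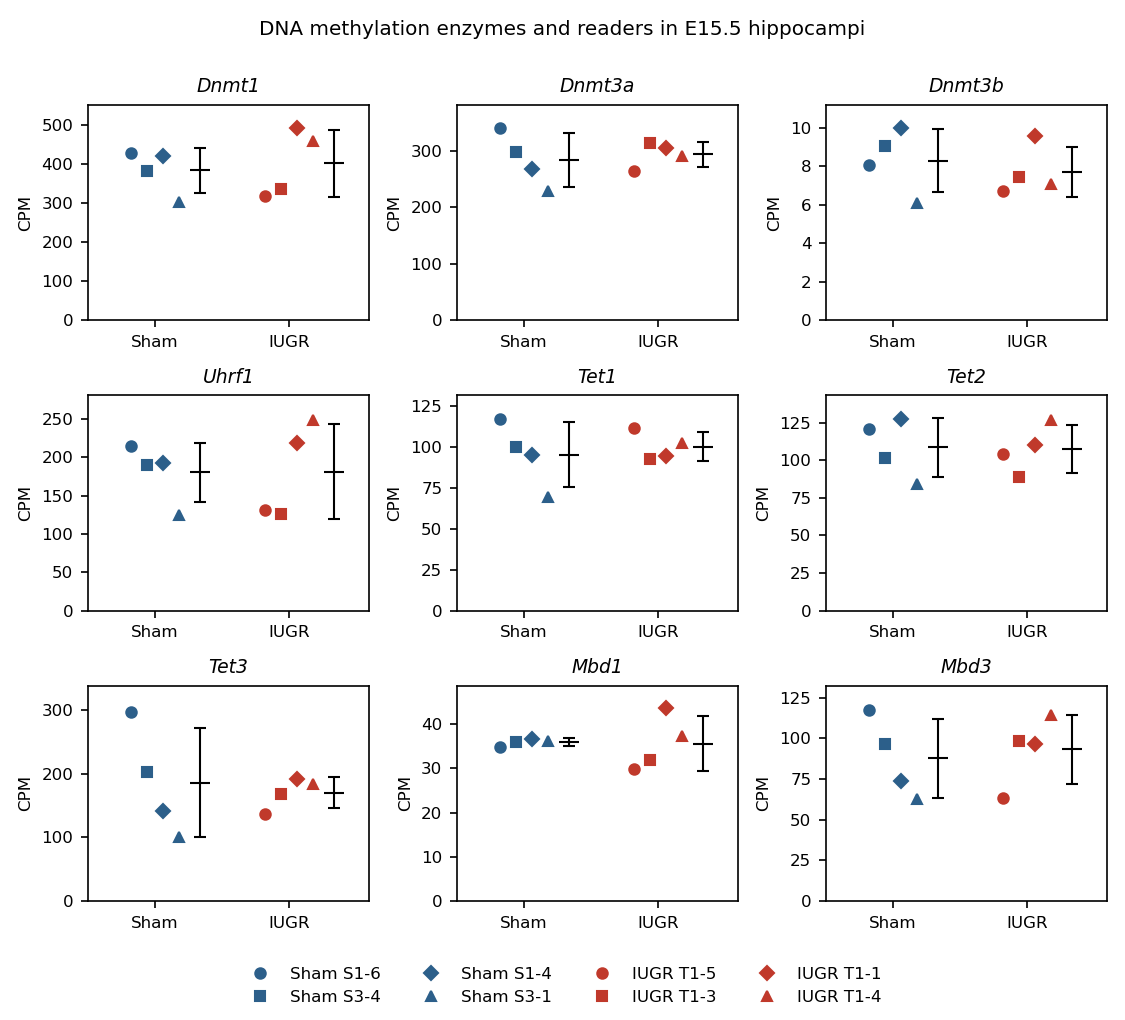
Each panel gives 1 gene, with the level in CPM on a vertical axis that starts at 0, 1 marker per sample (blue for sham, red for IUGR) and, beside the markers, the mean and SD of the 4 samples of the group. The groups overlap in every panel, S3-1 is the lowest sample in 8 of the 9, and the 4 sham values of Mbd1 sit within 34.7 and 36.7 CPM.

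The starts of these genes were read because Dnmt1 and Uhrf1 moved together across samples (below) and both are known as targets of E2F factors, which drive genes of S phase. RefSeq promoter windows of GRCm38.p6 were at hand for 8 of the 9 genes, in 13 windows, and the 250 bases before each start were searched on both strands for the 8-letter words TTTCCCGC, TTTCGCGC, TTTGCCGC and TTTGGCGC. At least 1 of these words was present in 1.86% of all 32851 windows. Among the members they were present in 1 of the windows of Dnmt1 and 1 of those of Uhrf1, both times as TTTCGCGC, which by itself was present in 0.256% of all windows. The words do not overlap another searched word at these places. TTTCGCGC itself contains CG, and the matching windows of Dnmt1 and Uhrf1 held 26 and 30 CG dinucleotides, against a median of 6. The share among windows equally rich in CG was not computed, so the shares over all windows do not tell how rare these matches are. Both places are shown 5′ to 3′ along the gene's strand with the word in capitals; on the Dnmt1 strand it reads as its reverse complement, GCGCGAAA.
Dnmt1, chr9:20952824-20952853, minus strand: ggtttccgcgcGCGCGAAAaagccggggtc
Uhrf1, chr17:56304117-56304146, plus strand: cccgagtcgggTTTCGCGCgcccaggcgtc
The Dnmt1 word starts 219 bases before a RefSeq start, in an exon of the transcripts Dnmt1-201 and Dnmt1-205 in GENCODE M21 (untranslated in Dnmt1-201) and in an intron of Dnmt1-202. The Uhrf1 word starts 185 bases before a RefSeq start, in an intron of Uhrf1-201 and Uhrf1-203. A match of letters is a description and not a measured site.

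The whole Uhrf1 window is given because it also shows the CG dinucleotides, the substrate of the enzymes themselves, whose number differed widely between the starts of these genes.
Uhrf1, chr17:56304063-56304312, plus strand: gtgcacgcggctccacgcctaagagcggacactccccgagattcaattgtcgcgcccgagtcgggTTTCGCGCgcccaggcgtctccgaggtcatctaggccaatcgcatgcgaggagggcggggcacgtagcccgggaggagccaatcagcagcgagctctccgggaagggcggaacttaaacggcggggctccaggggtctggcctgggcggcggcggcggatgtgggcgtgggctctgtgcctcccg
It holds 30 CG dinucleotides in 250 bases, against a median of 6 over all windows. The densest window among the members was that of Tet2, with 51, more than 99.9% of windows. Dnmt3a had windows with 38, 40 and 15, Dnmt1 had windows with 2, 7 and 26, the other Uhrf1 window had 10, and Dnmt3b had 21. Tet3, Tet1 and Mbd3 had 17, 15 and 14, around the upper quartile of all windows, which was 16. Methylation of these windows was not measured here.

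De novo methylation is carried out by Dnmt3a, the main such enzyme of the later embryonic and postnatal brain, and Dnmt3b, best known from the early embryo. Dnmt3a (ENSMUSG00000020661, GRCm38 chr12:3806007-3914443, plus strand) was at 265.1, 314.5, 305.4 and 291.1 CPM in IUGR and at 341.5, 298.2, 267.5 and 229.8 CPM in sham. All 4 IUGR samples fell within the range of the sham samples, whose extremes were S1-6 and S3-1. The means were 294 ± 21.6 CPM in IUGR and 284 ± 47.3 CPM in sham (SD, n = 4 each), with a log2 fold change of 0.049 (SE 0.14, interval from -0.26 to 0.36; exact permutation p = 0.657). An annotated antisense gene, Dnmt3aos, overlaps exons of Dnmt3a, and the strand setting of the counting is not given in the sources used here, so its reads could be part of these counts.

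Dnmt3b (ENSMUSG00000027478, GRCm38 chr2:153649450-153687730, plus strand) was the member with the fewest reads, between 78 and 128 counts per sample. It stood at 6.69, 7.44, 9.59 and 7.08 CPM in IUGR and at 8.05, 9.05, 9.98 and 6.12 CPM in sham. T1-1 was the only IUGR sample above 9 CPM, and the sham samples S3-4 and S1-4 were at that height too. The log2 fold change was -0.11 (SE 0.22, interval from -0.60 to 0.38; exact permutation p = 0.629). Dnmt3l, the catalytically inactive relative that stimulates both de novo enzymes in germ cells, was not listed in the table.

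Oxidation of methylcytosine is shared by Tet1, Tet2 and Tet3; Tet1 and Tet3 carry a CXXC domain that binds CG-rich DNA, which Tet2 lacks. Tet1 (ENSMUSG00000047146, GRCm38 chr10:62804570-62908996, minus strand) was at 111.4, 92.4, 94.8 and 102.8 CPM in IUGR and at 117.3, 99.8, 95.1 and 69.2 CPM in sham. Apart from S3-1, which was low, the other 7 samples lay between 92.4 and 117.3 CPM. The log2 fold change was 0.074 (SE 0.16, interval from -0.28 to 0.43; exact permutation p = 0.714).

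Tet2 (ENSMUSG00000040943, GRCm38 chr3:133463679-133545139, minus strand) was at 104.0, 88.6, 110.0 and 127.0 CPM in IUGR and at 120.8, 101.5, 127.4 and 84.4 CPM in sham. The highest and the lowest sample of each group were almost level with those of the other group. Its log2 fold change was -0.015 (SE 0.16, interval from -0.37 to 0.34; exact permutation p = 0.971). An antisense gene, Gm42567, overlaps exons of Tet2, and the remark made for Dnmt3a holds here.

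Tet3 (ENSMUSG00000034832, GRCm38 chr6:83362373-83459084, minus strand) was the most variable of the 9 genes. It was at 136.3, 169.0, 192.1 and 183.7 CPM in IUGR and at 297.9, 203.3, 141.9 and 100.1 CPM in sham. The whole IUGR group lay between the highest sham sample, S1-6, and the lowest, S3-1, which differed 2.98-fold. The SD was 24.6 CPM in IUGR and 85.9 CPM in sham (n = 4 each), and the log2 fold change was -0.13 (SE 0.28, interval from -0.76 to 0.51; exact permutation p = 0.943). With S1-6 left out, the fitted log2 fold change was 0.20, and with S3-1 left out it was -0.33.

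Readers were represented by Mbd1, a repressor that binds methylated CG sites and works with the histone methyltransferase Setdb1, and Mbd3, a subunit of the NuRD chromatin remodelling complex whose mammalian form binds methylated DNA weakly. Mbd1 (ENSMUSG00000024561) was at 29.7, 31.8, 43.5 and 37.3 CPM in IUGR and at 34.7, 35.9, 36.7 and 36.2 CPM in sham. The sham samples were almost equal, while 2 IUGR samples, T1-5 and T1-3, were below all of them and the other 2, T1-1 and T1-4, above. The SD was 6.19 CPM in IUGR and 0.849 CPM in sham around means of 35.6 and 35.9 CPM (n = 4 each); whether the groups differ in spread was not tested. The log2 fold change was -0.012 (SE 0.15, interval from -0.34 to 0.31; exact permutation p = 0.914).

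Mbd3 (ENSMUSG00000035478, GRCm38 chr10:80392539-80399550, minus strand) stood at 63.5, 98.5, 96.5 and 114.4 CPM in IUGR and at 117.6, 96.7, 73.9 and 62.9 CPM in sham. The lowest samples of the groups, T1-5 and S3-1, were level, as were nearly the highest, T1-4 and S1-6. The means were 93.2 ± 21.4 CPM in IUGR and 87.8 ± 24.4 CPM in sham (SD, n = 4 each), with a log2 fold change of 0.086 (SE 0.23, interval from -0.41 to 0.59; exact permutation p = 0.80).

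The next question was how the members rank against each other within a hippocampus. For that the CPM was divided by the summed exon length of each gene, which gives RPKM, a level per kilobase that can be compared between genes. Dnmt1 stood highest with a mean of 53.1 ± 9.30 RPKM over the 8 samples (SD), above 94.6% of tested genes. Mbd3 (45.6 ± 10.8 RPKM) and Uhrf1 (42.5 ± 11.2 RPKM) followed, and the order of these first 3 genes was not fixed: Dnmt1 was above Mbd3 in 6 of 8 samples and Mbd3 above Uhrf1 in 5 of 8. A gap came next, since Uhrf1 was above Dnmt3a (17.4 ± 2.07 RPKM) in all 8 samples, by 1.57-fold to 3.34-fold, with no overlap of their ranges.

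Below Dnmt3a, Tet3 had 10.7 ± 3.54 RPKM, and it was lower than Dnmt3a and higher than Tet2 in 8 of 8 samples, although the ranges of these neighbours overlap. Tet2 (6.40 ± 0.975 RPKM), Tet1 (6.33 ± 0.934 RPKM) and Mbd1 (5.33 ± 0.611 RPKM) could not be ranked, as Tet2 was above Tet1 in 4 of 8 samples and Tet1 above Mbd1 in 6 of 8. Dnmt3b was last with 1.57 ± 0.277 RPKM, above only 18.3% of tested genes, and lay below Mbd1 in all 8 samples with no overlap of ranges. The length used is that of all annotated exons, so genes with long untranslated or seldom used exons read lower than their main transcript would.

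**Figure D3:**
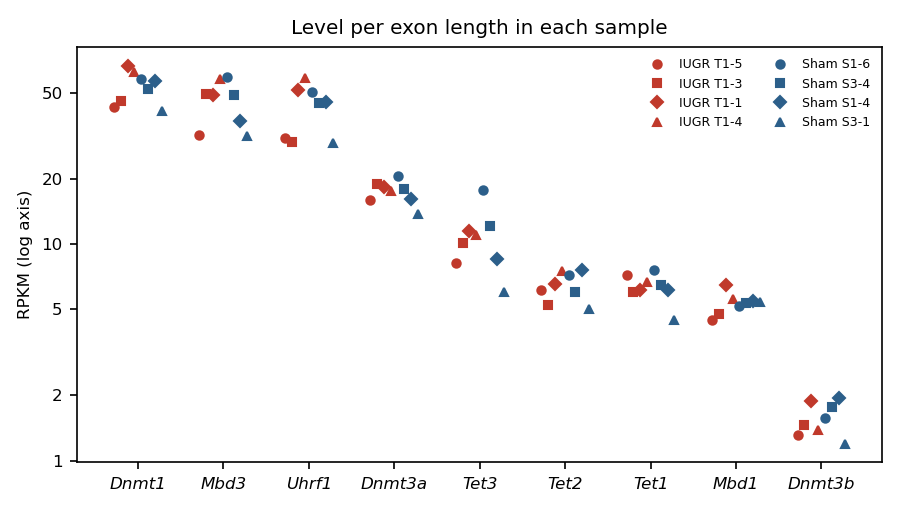
The vertical log axis gives RPKM for each of the 9 genes, ordered by mean level, with 1 marker per sample (red for IUGR, blue for sham). Dnmt1, Mbd3 and Uhrf1 form an upper group, and Dnmt3b lies apart at the bottom, between 1.20 and 1.96 RPKM.

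Shares within each enzyme family were close between the groups, and they were not tested. Dnmt1 made up 73.5 ± 3.83% of the summed RPKM of the 3 methyltransferases in IUGR and 73.5 ± 1.67% in sham (SD, n = 4 each). The share of Dnmt3a was 24.5 ± 3.69% in IUGR and 24.2 ± 1.88% in sham, and that of Dnmt3b was 2.07 ± 0.237% and 2.30 ± 0.295%. Dnmt3a stood between 8.22 and 13.0 times the level of Dnmt3b in every sample. Among the Tet genes, Tet3 made up 44.2 ± 4.54% in IUGR and 45.3 ± 8.13% in sham, with a range from 37.9% in T1-5 to 54.8% in S1-6. In each of the 8 samples Tet3 was the most abundant Tet transcript per length. The ratio of Uhrf1 to Dnmt1 was between 0.651 (T1-3) and 0.941 (T1-4), and both extremes were IUGR samples.

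Since single samples differed by up to 2.98-fold in a member, the members were compared with each other across the 8 samples, by Pearson's r and Spearman's rho of log2 CPM with permutation p values adjusted over all 36 pairs. Dnmt1 and Uhrf1 varied together most closely, with r = 0.946 (permutation p = 0.00139, adjusted p = 0.0211) and rho = 0.952 (permutation p = 0.00114, adjusted p = 0.041). Leaving out the 2 samples farthest from the median of Uhrf1 gave r = 0.924, and subtracting each group's mean gave r = 0.958. Dnmt3a, Tet3 and Mbd3 formed the other set. Dnmt3a and Tet3 had r = 0.942 (permutation p = 0.00156, adjusted p = 0.0211), Tet3 and Mbd3 had r = 0.876 (permutation p = 0.00176, adjusted p = 0.0211), and Dnmt3a and Mbd3 had r = 0.876 (permutation p = 0.00313, adjusted p = 0.0282). Without the 2 farthest samples these 3 values of r were 0.791, 0.768 and 0.759. By rank the same 3 pairs missed the threshold, with rho of 0.833, 0.81 and 0.833 and an adjusted permutation p of 0.157 each. No other pair reached an adjusted p of 0.05 by either measure. Values of r within IUGR or sham, or within a name prefix, were not computed, since those sets hold at most 4 samples, fewer than the 6 asked of a correlation here.

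Other pairs had low values of r, which over 8 samples do not show that a relation is absent. Mbd1 and Dnmt3a had r = 0.0713 (permutation p = 0.876, adjusted p = 0.876; rho = -0.0714, adjusted p = 0.934; r = -0.493 without the 2 farthest samples). Tet1 and Mbd1 were the only pair with Pearson's r under 0, r = -0.258 (permutation p = 0.511, adjusted p = 0.546; rho = -0.286, adjusted p = 0.622; r = -0.0714 without the 2 farthest samples).

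**Figure D4:**
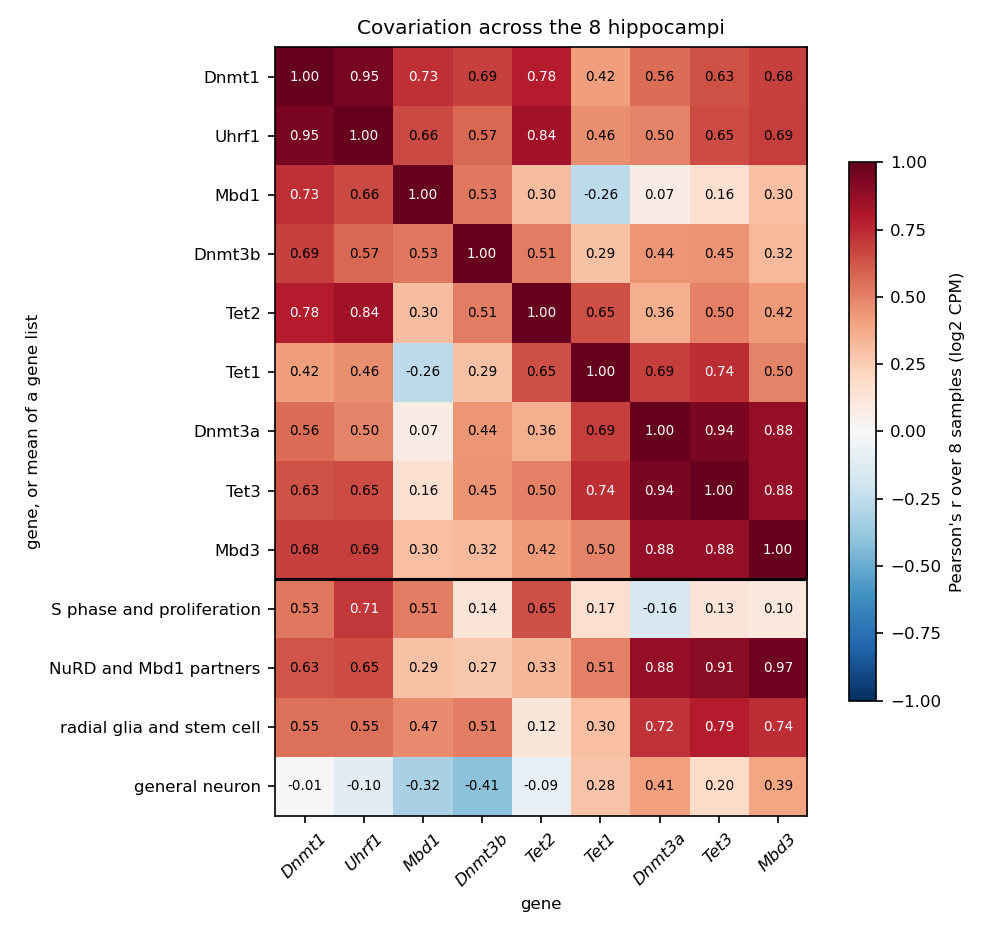
Each cell gives Pearson's r of log2 CPM over the 8 samples, between genes above the line and between a gene and the mean of a gene list below it, on a color scale from -1 to 1. Dnmt1 with Uhrf1 (0.946) and the set of Dnmt3a, Tet3 and Mbd3 stand out, and Mbd3 has its highest value with the NuRD list (0.975).

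The same was asked of 4 lists of genes, each taken as the mean log2 CPM of its tested genes, again over 36 relations. Mbd3 followed the mean of the 15 genes of the NuRD complex and of Mbd1 partners, a list that does not hold Mbd3 itself. The values were r = 0.975 (permutation p = 0.000223, adjusted p = 0.0067), rho = 0.929 (permutation p = 0.00223, adjusted p = 0.0401) and r = 0.967 without the 2 farthest samples. Single genes of the list need not follow Mbd3: Hdac2 was highest in S3-1, at 825.2 CPM, where Mbd3 was lowest. The relation was not particular to this list, since Mbd3 had an r above 0.9 with 288 tested genes (below). Tet3 also varied with this list (r = 0.906, permutation p = 0.000372, adjusted p = 0.0067; rho = 0.929, adjusted p = 0.0401; r = 0.85 without the 2 farthest samples). For Dnmt3a the value was r = 0.882 (permutation p = 0.0028, adjusted p = 0.0252) but the rank measure did not pass (rho = 0.762, adjusted permutation p = 0.165; r = 0.821 without the 2 farthest samples). The level of the list was lowest in S3-1, T1-5 and S1-4, at a mean log2 CPM of 6.71, 6.72 and 6.73, and highest in S1-6 at 7.09.

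Uhrf1 varied with 28 genes of S phase and proliferation (r = 0.706, permutation p = 0.00191, adjusted p = 0.0229; r = 0.882 without the 2 farthest samples), while by rank it missed the threshold narrowly (rho = 0.905, permutation p = 0.00456, adjusted p = 0.0547). Dnmt1 had r = 0.527 with the same list (permutation p = 0.175, adjusted p = 0.485), rho = 0.857 (adjusted permutation p = 0.077) and r = 0.828 without the 2 farthest samples. Among other members, Tet2 had r = 0.645 (permutation p = 0.0633, adjusted p = 0.285; rho = 0.762, adjusted p = 0.165; r = 0.496 without the 2 farthest samples), and Mbd1 had r = 0.512 (permutation p = 0.228, adjusted p = 0.513; rho = 0.857, adjusted p = 0.077; r = 0.761 without the 2 farthest samples). The list stood at 6.36 in T1-3, the lowest of the 8, and at 7.17 in T1-4, the highest, on the scale of mean log2 CPM, whereas the sham samples lay between 6.90 and 6.95. T1-3 was also the sample with the most meningeal transcripts and T1-4 the one with the fewest, and the part of this in the values of Uhrf1 was not tested. No member reached an adjusted p of 0.05 with the radial glia or the neuron list, where Tet3 with radial glia came nearest (r = 0.789, permutation p = 0.015, adjusted p = 0.108; rho = 0.833, adjusted p = 0.0924; r = 0.9 without the 2 farthest samples).

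For each member the genes most like it were taken as the 3 tested genes with the highest Pearson's r of log2 CPM over the 8 samples, which share libraries, depth and scaling. Uhrf1 was most like Lig1 (r = 0.993), the ligase that joins Okazaki fragments, then Ncapd2 (0.986), a condensin subunit, and Nde1 (0.985). Dnmt1 was most like Xrcc1 (0.987), a scaffold of DNA repair, Heatr6 (0.982) and Dhx38 (0.981). Dnmt3a was most like Prdm16 (0.992), a transcription factor of radial glia, Ubr4 (0.990) and Sik3 (0.987). Tet3 was most like Tmem131 (0.992) and a pair of chromatin enzymes, Kdm3b (0.988) and Kmt2a (0.988). Mbd3 was most like Ccdc97 (0.992), Cntfr (0.987) and Nol12 (0.987).

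The remaining members had fewer close neighbours. Tet1 was most like Zbed6 (0.978), N4bp2 (0.957) and Med14 (0.954), and Tet2 was most like 9930021J03Rik (0.983), Stip1 (0.968) and Pou2f1 (0.964). Mbd1 was most like Nelfcd (0.965), Homer3 (0.963) and Tas1r3 (0.963), and Dnmt3b was most like Ctnna1 (0.954), Tollip (0.953) and Golga4 (0.949). An r above 0.9 was shared with 331 tested genes by Dnmt3a, 299 by Tet3 and 288 by Mbd3, with 104 by Uhrf1 and 82 by Dnmt1, and with 34, 30, 29 and 16 by Mbd1, Tet2, Tet1 and Dnmt3b. These values are descriptions over 8 samples and carry no test.

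Other genes of the pathway were read from 6 lists. Of the 65 tested genes of these lists, 0 were called by edgeR's quasi-likelihood test, DESeq2 or limma-voom, and 4 had an unadjusted p under 0.05, against 1.46% called and 11.1% at that p over all tested genes. The 4 are no more than that background holds, and they are described for their roles. Among other writers and readers, 9 of 10 were tested, with a median log2 fold change of -0.042. Zbtb38, a zinc finger protein that binds methylated CG sites, stood at 62.7, 71.9, 56.4 and 44.5 CPM in IUGR and at 41.0, 42.6, 34.2 and 52.6 CPM in sham. Of the IUGR samples, 3 were above the sham range and T1-4 was inside it, with a log2 fold change of 0.47 (SE 0.18, adjusted p = 0.33 in edgeR). Zbtb4, a related reader, had a log2 fold change of -0.39 (SE 0.16, adjusted p = 0.374 in edgeR). Uhrf2, the paralog of Uhrf1, had 0.053 (SE 0.12).

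Base excision completes the removal of oxidized methylcytosine. Of the 14 genes of base excision and demethylation, with the Gadd45 genes among them, none had a p under 0.05. Their log2 fold changes ran from -0.47 for Neil2 to 0.11 for Gadd45a, and Tdg, the glycosylase that acts after the Tet enzymes, had 0.094 (SE 0.20). Of 17 partners in maintenance and recruitment, 16 were tested and none had a p under 0.05, with log2 fold changes from -0.17 for Pcna, the replication clamp, to 0.48 for Cxxc4. Hells, a remodeller needed for methylation of repeats, had -0.10 (SE 0.17).

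In the list of the NuRD complex and Mbd1 partners, Chd5, a neuronal remodeller, stood at 61.9, 85.4, 40.2 and 69.6 CPM in IUGR and at 51.6, 18.8, 38.2 and 25.6 CPM in sham. Of the IUGR samples, 3 were above every sham sample and T1-1 was inside the sham range, with a log2 fold change of 0.94 (SE 0.31, adjusted p = 0.224 in edgeR). The part of the neuron markers, whose means were higher in all 4 IUGR samples than in any sham sample, in the value of Chd5 was not tested. The rest of the list ran from -0.18 for Gatad2b to 0.13 on the log2 scale, with Chd4 at -0.073, Hdac1 at -0.036 and Hdac2 at -0.053.

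The methyl donor list holds genes that make and recycle S-adenosylmethionine, and also Ahcyl1 and Ahcyl2, which are relatives of such a gene. Its median log2 fold change was -0.11 over 8 genes. Ahcyl2, a relative of the enzyme that clears S-adenosylhomocysteine, was at 48.3, 49.9, 36.6 and 29.5 CPM in IUGR and at 67.1, 59.2, 67.6 and 57.5 CPM in sham. All 4 IUGR samples were below all 4 sham samples, with T1-4 lowest, the sample that also had the lowest choroid plexus level. The log2 fold change was -0.61 (SE 0.18, adjusted p = 0.145 in edgeR), which did not pass, and the part of choroid plexus in it was not tested. Ahcyl1 was highest in the list at 0.068.

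Germline genes that promoter methylation keeps silent in somatic cells were read last. Every gene of the table reached a count of at least 10 in some sample, so genes that stayed silent could not be listed. The list therefore cannot show whether silencing held. Of 16 listed, 5 were in the table and 3 had enough counts to be tested, Ddx4, Tdrd1 and Brdt. Their means in IUGR were 1.09, 1.12 and 2.09 CPM, and their means in sham were 1.22, 1.30 and 2.36 CPM. All 3 were low in both groups, with log2 fold changes of -0.16, -0.21 and -0.17 and SE of 0.42, 0.36 and 0.36, so differences of this size could not be told from the spread between samples. Mki67 and Mcm2, which mark dividing cells and the replication helicase, had log2 fold changes of -0.15 (SE 0.25) and -0.13 (SE 0.18), and the 28 genes of S phase and proliferation had a median of -0.073, from -0.25 for Cdk1 to 0.11 for Rrm2.

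**Figure D5:**
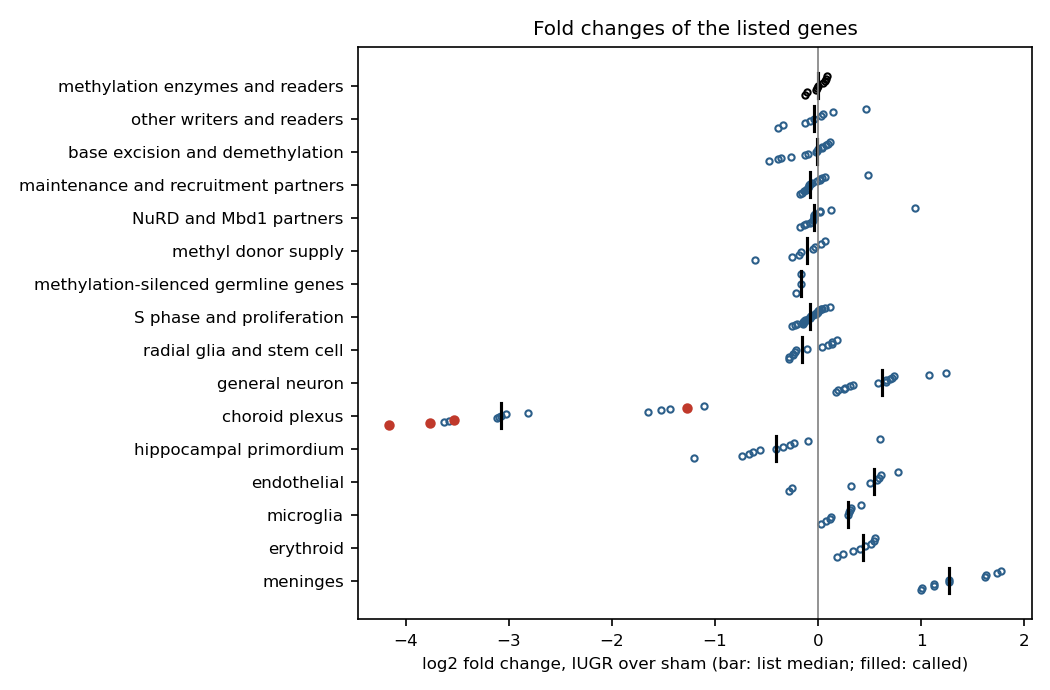
The horizontal axis is the log2 fold change of IUGR over sham from edgeR, with 1 circle per tested gene, filled where the gene was called, and a bar at the median of each list. The 9 methylation enzymes and readers sit between -0.13 and 0.086, and filled circles are found in the choroid plexus list alone, which has 4.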

How the data were processed

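Total RNA was sequenced as single reads (Illumina TruSeq Stranded Total RNA, Ribo-Zero Gold, Illumina HiSeq) from 8 hippocampi. The authors aligned reads to GRCm38 (mm10; Novoalign 2.8 in the processing notes of the submitters) and deposited raw counts per gene, 1 column per sample, without normalization; the counting program, annotation and strand setting are not given in the sources used here. No other columns of per-sample values were present (0 not used).

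Identifiers were matched to GENCODE M21, and 273 without a match were left out. Genes that encode proteins and whose mean count reached 10 but not 50000 were tested in R 4.3.3 with edgeR 4.0.16 (TMM, quasi-likelihood test, Benjamini-Hochberg adjustment over all 13707 genes), checked on simulated data. A call needed an adjusted p of at most 0.05 and an absolute log2 fold change of at least 1. The log2 CPM used a prior count of 2. DESeq2 1.42.0, limma 3.58.1 (voom), other scalings and filters, single samples left out, and S1 or S3 sham samples alone were alternatives. Samples were grouped by the treatment label. Permutation tests were exact and two-sided (Python 3.11.15). The precision of a value follows from total counts of 11212632 to 16672463 per sample, and intervals are at 95%.

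The 9 members and all lists were chosen with earlier results of these data known. Named genes were the members, the called genes and the extremes of each list (those of the choroid plexus, vascular, blood, microglia and meninges lists are not printed), 10 fixed background genes, and the 3 genes most like each member.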

Additional observations from a re-analysis of the deposited data

How the results depend on the processing

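No member, and none of the other pathway genes that each alternative tested, was called under any alternative run, and none of the members had an unadjusted p under 0.05 in any of them; the nearest was Uhrf1 without T1-1 and T1-4, at an unadjusted p of 0.0532 (adjusted p = 0.366 in edgeR). The number of genes called over the whole table did depend on the processing: it was 200 in the main comparison, 425 with DESeq2's Wald test, 328 with limma-voom, 73 with a mean count of at least 50, 0 with the S1 sham samples alone (1071 at an unadjusted p under 0.05) and 2 with the S3 sham samples alone. Leaving out 1 sample gave between 24 (without S1-4) and 302 (without T1-5); without T1-1, T1-4, S1-6, S3-4 and S3-1 the counts were 67, 113, 127, 59 and 102. The cause was not tested.

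The fitted changes lay near 0, and their signs turned with the samples and the processing used. With the S1 sham samples alone, log2 fold changes were -0.051 for Dnmt1, -0.024 for Dnmt3a, -0.14 for Uhrf1, -0.057 for Tet1, 0.022 for Mbd1 and -0.0086 for Mbd3, and Dnmt3b, Tet2 and Tet3 were below 0 as well (Tet3 lowest, at -0.34). With the S3 sham samples alone all 9 were above 0, at 0.064 for Dnmt3b, 0.25 for Tet2, 0.21 for Tet3, 0.027 for Mbd1, 0.27 for Dnmt1, 0.20 for Dnmt3a, 0.24 for Uhrf1, 0.29 for Tet1 and 0.27 for Mbd3. Without T1-1 and T1-4 they were -0.23 for Dnmt1, -0.49 for Uhrf1 and -0.12 for Mbd3. For Tet2 and Mbd1 the sign also turned with DESeq2 size factors (0.0073 and 0.013), upper-quartile scaling (0.0062 and 0.0086), DESeq2's Wald test (0.0073 and 0.0125) and a mean count of at least 50 (0.015 and 0.021). limma-voom gave -0.033 for Uhrf1. Leaving out 1 sample gave ranges from -0.033 to 0.17 for Dnmt1, -0.041 to 0.15 for Dnmt3a, -0.23 to 0.035 for Dnmt3b, -0.19 to 0.18 for Uhrf1, -0.053 to 0.19 for Tet1, -0.12 to 0.11 for Tet2, -0.33 to 0.20 for Tet3, -0.087 to 0.072 for Mbd1 and -0.044 to 0.26 for Mbd3. The exact permutation test of Uhrf1 gave p = 0.971 on CPM without a logarithm. There the mean of IUGR minus sham was 0.60 CPM, whereas it was -0.032 on log2 CPM.

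No paired analysis was possible because the sample names carry no number that the labels tie to a shared litter, batch or day. Dnmt3b, with 78 to 128 counts per sample, and the germline genes have the fewest counts, and the number of samples limits every interval. Counting errors cover reads and not separate molecules.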
